A study of Mus musculus with 12 samples.

Results

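Tas2r143, Tas2r135 and Tas2r126 are 3 neighbouring bitter taste receptor genes of the mouse, and together they made up 3 of the 55367 genes counted in this series. They were selected on measured values: Tas2r143 and Tas2r135 were among the genes with the largest falls in whole blood 6 h after a dose of CPI-0209, and Tas2r126 was added because it lies beside them. The difference between the 6 h and vehicle groups is therefore given below as a description with no p, as are the other 2 comparisons that use the 6 h libraries.

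Bitter taste receptors (the TAS2R family) are G protein-coupled receptors, each encoded by a gene without introns in its coding region. In taste cells they couple to a G protein with the alpha subunit gustducin (Gnat3), which acts through phospholipase C beta 2 (Plcb2), the inositol trisphosphate receptor Itpr3 and the channel Trpm5. TAS2R transcripts have also been described outside the tongue, in airway, gut and some immune cells.

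The blood came from CB17-SCID mice, which lack mature B and T cells, and every mouse carried a xenograft of HT1376, a human bladder cancer line. The 4 groups of 3 libraries were mice given vehicle, and mice given CPI-0209 (tulmimetostat, an inhibitor of the histone methyltransferases EZH2 and EZH1) at 35 mpk (mg per kg) by mouth each day, with blood drawn 1 h, 6 h or 24 h after the last dose. All groups were dosed for 11 days. The labels give no sex, age or bleeding time for the vehicle mice, and do not say that replicates came from separate mice, so p-values measure the spread between these libraries only. RNA was total RNA depleted of ribosomal RNA.

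Library totals ran from 6496573 to 9978215 counts, and 13384 genes passed the filter on low counts, the 3 receptors among them. The markers of blood were as the label says: reticulocyte, platelet, neutrophil, monocyte and NK cell markers were present in every group, whereas 2 of 3 B cell markers were at 0 in every library and the summed T cell markers did not exceed 5.94 CPM (the deposited counts scaled to a common library size by TMM) in any library. The series' 24 h libraries differed most among themselves. In bulk blood, fewer cells of a type and less RNA per cell cannot be told apart.

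In the GENCODE M21 annotation of GRCm38, each receptor is a single-exon gene with 1 transcript on the plus strand of chromosome 6. Tas2r143 (ENSMUSG00000046652) spans 42400238 to 42401119, Tas2r135 (ENSMUSG00000056203) spans 42405434 to 42406526 and Tas2r126 (ENSMUSG00000048284) spans 42434535 to 42435464. A gap of 4.3 kb separates Tas2r143 from Tas2r135, and 28.0 kb separates Tas2r135 from Tas2r126. No other annotated gene overlaps any of them. The transcripts are far from identical, with 46.2% of aligned positions the same between Tas2r143 and Tas2r135, 52.6% between Tas2r143 and Tas2r126 and 47.7% between Tas2r135 and Tas2r126. Of the 833, 1044 and 881 stretches of 50 bases in Tas2r143, Tas2r135 and Tas2r126, 0 occurred in a transcript of any other annotated gene, so reads of that length could be told apart from other annotated transcripts.

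The bases just before each gene are shown because all 3 genes were lowest at 6 h, in the comparison that chose Tas2r143 and Tas2r135. No source used here shows where transcription begins, so these bases need not be promoter sequence. They come from the RefSeq table of GRCm38.p6 (plus strand, 5′ to 3′), which held all 3 genes, and stop where the first annotated transcript starts. Capitals mark ATTTGCAT, the octamer motif bound by POU-domain factors.
Tas2r143, chr6:42399988-42400237: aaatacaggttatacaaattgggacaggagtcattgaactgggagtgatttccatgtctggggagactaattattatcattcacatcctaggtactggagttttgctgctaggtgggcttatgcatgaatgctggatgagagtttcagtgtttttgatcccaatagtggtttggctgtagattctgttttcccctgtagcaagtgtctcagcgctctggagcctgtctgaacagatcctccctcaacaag
Tas2r135, chr6:42405279-42405433: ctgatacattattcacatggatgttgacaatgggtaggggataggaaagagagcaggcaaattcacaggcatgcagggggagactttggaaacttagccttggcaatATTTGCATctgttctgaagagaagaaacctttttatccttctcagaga
Tas2r126, chr6:42434285-42434534: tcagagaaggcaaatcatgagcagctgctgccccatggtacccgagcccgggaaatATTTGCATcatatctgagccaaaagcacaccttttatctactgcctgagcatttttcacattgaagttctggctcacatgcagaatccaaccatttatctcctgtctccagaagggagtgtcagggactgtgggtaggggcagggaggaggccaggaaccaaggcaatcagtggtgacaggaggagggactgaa

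In Tas2r135 the octamer begins 48 bases before the end of the letters shown, where the GENCODE transcript starts; the RefSeq start lies 95 bases farther on, which puts the octamer 143 bases before it. In Tas2r126 it begins 194 bases before the start in both annotations, and it is not among these letters for Tas2r143. It was searched on both strands and chosen after the sequences had been read. Among 32817 RefSeq promoter windows it was found in 0.98% within the first 155 bases, the length shown for Tas2r135, and in 1.60% within the first 250 bases. The longest run that the Tas2r135 and Tas2r126 windows share is AATATTTGCATC, 12 bases that include the octamer. The 2 of the 32817 windows that hold it are those of Tas2r135 and Tas2r126. It was picked from these same 2 sequences, so that count tests nothing. Tas2r143 shares runs of at most 9 bases with Tas2r135 and 8 with Tas2r126. The GATA motif AGATAA occurs on the minus strand of the Tas2r126 window 161 and 100 bases before the start, and in 9.99% of 250-base windows. The letters GAGGAA, the core of a PU.1-type ETS motif, are in none of the 3 (23.3% of 250-base windows hold them). The same is true of the promoter element TATAAA (12.4%).

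The counts of Tas2r143 were 31, 26 and 22 with vehicle, 43, 34 and 55 after 1 h, 1, 6 and 3 after 6 h, and 59, 28 and 9 after 24 h. All 3 libraries at 6 h lay below every other library, and the 3 at 1 h lay above all vehicle libraries. The share of all genes whose groups separate in this way is not given, here or for the other receptors below. The mean level was 3.07 ± 0.465 CPM with vehicle, 5.22 ± 1.16 after 1 h, 0.426 ± 0.299 after 6 h and 3.77 ± 2.81 after 24 h (SD, n = 3 each).

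The counts of Tas2r135 were 59, 49 and 66 with vehicle, 82, 44 and 92 after 1 h, 8, 17 and 15 after 6 h, and 109, 46 and 29 after 24 h. Again no 6 h library reached the lowest of the others, while the vehicle, 1 h and 24 h ranges overlapped. The mean level was 6.84 ± 1.57 CPM with vehicle, 8.70 ± 3.25 after 1 h, 1.74 ± 0.482 after 6 h and 7.40 ± 4.59 after 24 h (SD, n = 3 each).

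The counts of Tas2r126 were 46, 40 and 66 with vehicle, 60, 42 and 93 after 1 h, 16, 15 and 10 after 6 h, and 100, 58 and 21 after 24 h. The 6 h libraries were the lowest here as well, with the other 3 groups overlapping. The mean level was 6.02 ± 2.13 CPM with vehicle, 7.66 ± 2.65 after 1 h, 1.84 ± 0.552 after 6 h and 7.07 ± 4.24 after 24 h (SD, n = 3 each).

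**Figure D1:**
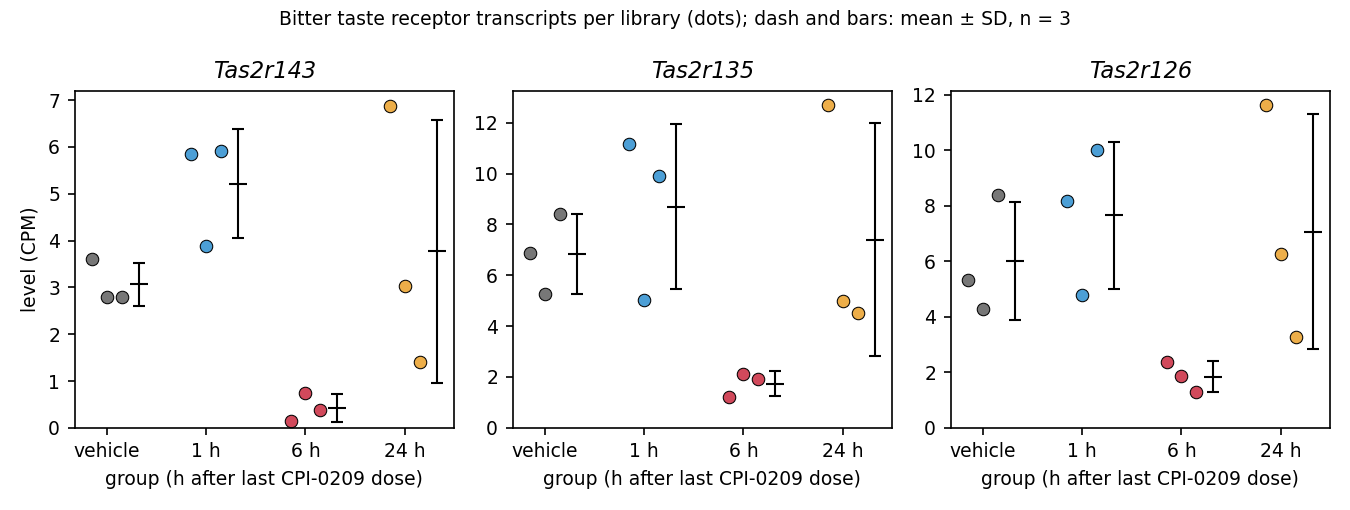
Level of Tas2r143, Tas2r135 and Tas2r126 (CPM, y axis) in the 12 libraries by group (x axis); each dot is a library, and the dash with bars is the mean ± SD of 3 libraries. The 6 h libraries lie at or below 2.39 CPM for all 3 genes, in each case under every other library for the same gene, and the 24 h libraries are the most spread.

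Per kb of exon, Tas2r135 and Tas2r126 stood at nearly equal levels, and Tas2r143 below them. In vehicle blood the levels were 3.48 ± 0.528 CPM per kb for Tas2r143, 6.26 ± 1.43 for Tas2r135 and 6.47 ± 2.29 for Tas2r126 (SD, n = 3), so that Tas2r135 and Tas2r126 do not differ beyond their spread. At 6 h the order was the same, with 0.483 ± 0.339, 1.59 ± 0.441 and 1.98 ± 0.594 CPM per kb. In every library, each of the 3 genes was detected, with 1 count for Tas2r143 in 6 h replicate 1 as the lowest value.

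The share of Tas2r143 among the counts of the 3 receptors was 22.8%, 22.6% and 14.3% with vehicle, 23.2%, 28.3% and 22.9% after 1 h, 4.0%, 15.8% and 10.7% after 6 h, and 22.0%, 21.2% and 15.3% after 24 h. These shares rest on 115 to 154 counts per vehicle library and 25 to 38 per library at 6 h. Of the 6 h libraries, only replicate 2 lay within the vehicle range. The share of Tas2r135 averaged 39.8% at 1 h, 43.4% at 6 h and 41.6% at 24 h, against 43.0% with vehicle.

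The comparison of 6 h with vehicle, which chose the genes, gave log2 differences of -2.77 (SE 0.63) for Tas2r143, -1.95 (SE 0.46) for Tas2r135 and -1.70 (SE 0.48) for Tas2r126. On summed counts, Tas2r143 had 10 at 6 h and 79 in vehicle, a ratio of 0.145 after scaling. For Tas2r135 the counts were 40 and 174 and the ratio 0.263, and for Tas2r126 41 and 152 with 0.308. These ratios pool the 3 libraries of each group, leave out the spread between them and come from the comparison that chose the genes. Against 1 h, the 6 h group stood lower by log2 differences of -3.53, -2.30 and -2.05 for Tas2r143, Tas2r135 and Tas2r126, and the 24 h group stood above the 6 h group by 3.08, 2.07 and 1.95. Without 24 h replicate 1 these last 3 values were 2.35, 1.45 and 1.42.

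At 1 h and 24 h none of the 3 receptors differed from vehicle in the test. At 1 h the log2 difference of Tas2r143 was 0.76 (SE 0.49) with an adjusted p of 0.846 by edgeR. Tas2r135 and Tas2r126 both had 0.35 (SE 0.41 and 0.43), with adjusted p of 0.942 and 0.945. At 24 h the differences were 0.31 (SE 0.50) for Tas2r143, 0.12 (SE 0.41) for Tas2r135 and 0.25 (SE 0.43) for Tas2r126, with adjusted p of 0.927, 0.967 and 0.935. These tests share the vehicle libraries with the comparison that chose the genes. edgeR called 0 of 3 at either time, and 0 at an unadjusted p of 0.05, as did DESeq2 and limma-voom; across all genes 0.194% were called at 1 h and 0.105% at 24 h. Without 24 h replicate 1 the 24 h differences turned to -0.43, -0.52 and -0.31 for Tas2r143, Tas2r135 and Tas2r126, and without vehicle replicate 2 that of Tas2r135 turned to -0.03.

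The 24 h and 1 h groups share no library with the choice of genes. At 24 h against 1 h the log2 differences were -0.45 (SE 0.49) for Tas2r143, -0.22 (SE 0.41) for Tas2r135 and -0.10 (SE 0.43) for Tas2r126, with adjusted p of 0.956, 0.977 and 0.997 by edgeR. edgeR, DESeq2 and limma-voom each called 0 of 3, with 0 at an unadjusted p of 0.05, where edgeR called 0.0224% of all genes. For Tas2r143 the difference was -1.22 without 24 h replicate 1 and -0.08 without 24 h replicate 3. Without 24 h replicate 3 the differences of Tas2r135 and Tas2r126 turned to 0.02 and 0.22, and without 1 h replicate 3 that of Tas2r126 turned to 0.13. A p that misses the threshold does not show that the levels were equal.

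Nearly all bitter receptor counts in this blood came from these genes. The other 37 bitter receptor rows, pseudogenes included, held 16 counts in all over the 12 libraries, against 1500 for Tas2r143, Tas2r135 and Tas2r126, which is 98.9% of the family's counts. Of those 37, 30 were at 0 in every library, the highest total was 6, and 0 passed the filter. Tas2r139 and Tas2r144, bitter receptors that lie within 300 kb upstream, were among those at 0. Among the sweet and umami receptors, Tas1r2 was at 0 and Tas1r1 had 8 counts in all. Tas1r3, their shared subunit, stood at 1.74 ± 0.177 CPM after 6 h and 1.65 ± 0.434 CPM with vehicle (SD, n = 3), and its log2 difference was 0.07 (SE 0.42, adjusted p = 0.947).

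The specialised parts of the taste cascade were mostly missing from the counts, while its general parts were abundant. Gnat3, Gng13 (a gustducin gamma subunit), Calhm1 (the channel subunit through which taste cells release ATP) and Asic5 were at 0 in every library. Trpm5 had 28 counts in all. Of 8 markers of tuft or taste cells, 5 were at 0 throughout, Pou2f3, the transcription factor that specifies those cells, among them. The rest were Trpm5, Avil with 86 counts in all (at most 36 in a library) and Dclk1 with 8. Plcb2 averaged 29.2 ± 6.78 CPM at 6 h and 33.4 ± 3.87 CPM in vehicle (SD, n = 3), with a log2 difference of -0.20 (SE 0.22, adjusted p = 0.674). Itpr3 averaged 5.91 ± 1.34 CPM at 6 h and 8.05 ± 1.55 CPM in vehicle, with -0.44 (SE 0.35, adjusted p = 0.524).

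Of 26 transduction genes, 12 were tested, and 0 were called at 6 h against vehicle by edgeR, where 4.84% of all genes tested were called at an adjusted p of 0.05. At an unadjusted p of 0.05 there were 0 as well, and likewise 0 by DESeq2 and limma-voom. Their median log2 difference was -0.12, and that of all genes tested was -0.04. In the other 5 comparisons edgeR also called 0 of the 12, with at most 5 at an unadjusted p of 0.05 (24 h against 6 h, where DESeq2 called 1). Of all genes edgeR called 0.493% at 6 h against 1 h and 1.76% at 24 h against 6 h, and the shares of the other 3 comparisons are those given above. The most abundant were Gnai2 and Gnai3, inhibitory G protein alpha subunits, and Rtp4, a receptor-transporting protein, at 734, 123 and 151 CPM on average over the 12 libraries. Of 8 names for kinases and arrestins that switch G protein-coupled receptors off, 6 were counted and tested. The only one called, where 4.06% of all genes tested were called higher, was Arrb1, beta-arrestin 1, at 414 ± 80.7 CPM at 6 h and 253 ± 49.97 CPM in vehicle (SD, n = 3, log2 difference 0.71, SE 0.19, adjusted p = 0.0451, higher in 3 of 3 libraries). That call was lost in 10 of the 12 fits that left out 1 library, and with scaling by library totals alone (0.24, adjusted p = 0.43). Grk2, Grk5 and Arrb1 led that list at 246, 172 and 326 CPM on average.

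The genes on either side were not used to choose the receptors, but the region was chosen for falls in these same 6 h and vehicle libraries. Tests of the neighbours that use those libraries are therefore not independent of the choice. Within 300 kb there were 26 other annotated genes, of which 9 passed the filter, 9 were at 0 in every library and 8 had too few counts. At 6 h against vehicle, 2 of the 9 fell and 0 rose, where 0.785% of all genes tested fell and 4.06% rose, and their median log2 difference was -0.29. The first was 2010310C07Rik, a noncoding RNA annotated as antisense, on the same strand as the receptors and ending 19.0 kb before Tas2r143. The second was Olfr457, an olfactory receptor gene on the opposite strand that lies beyond Tas2r126.

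2010310C07Rik (42370671 to 42381215) had 16, 25 and 24 counts at 6 h, against 130, 104 and 130 in vehicle. Its level averaged 2.86 ± 0.404 CPM at 6 h and 14.3 ± 2.78 CPM in vehicle (SD, n = 3), a log2 difference of -2.31 (SE 0.44, adjusted p = 0.00818), lower in 3 of 3 libraries. The call held in all 12 fits that left out 1 library, with adjusted p up to 0.047. At 6 h against 1 h it was also lower (-2.50, SE 0.44, adjusted p = 0.0306), and at 24 h against 6 h it was higher (2.27, SE 0.44, adjusted p = 0.0296). Without 24 h replicate 1, 24 h replicate 2 or 6 h replicate 3, edgeR called 0 of all genes at 24 h against 6 h. Fitting only those 2 groups also gave 0 calls, so the call was lost in each of these fits. At 6 h against 1 h edgeR called 66 genes in all, but 4 without 1 h replicate 3 or without 6 h replicate 1. Whether 2010310C07Rik was among those 4 is not given here. At 1 h and 24 h against vehicle 2010310C07Rik had 0.20 (adjusted p = 0.966) and -0.04 (adjusted p = 0.990). Per kb of exon it stood at 1.19 ± 0.169 CPM at 6 h and 5.95 ± 1.16 CPM in vehicle, close to the level of Tas2r135.

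Olfr457 (42468015 to 42476335) had 32, 64 and 53 counts at 6 h, against 95, 106 and 133 in vehicle. Its level averaged 6.50 ± 1.59 CPM at 6 h and 13.1 ± 3.30 CPM in vehicle (SD, n = 3), a log2 difference of -1.0 (SE 0.26, adjusted p = 0.0385), lower in 3 of 3 libraries. That call was lost in 10 of the 12 fits that left out 1 library, with limma-voom and with the replicate block (adjusted p = 0.059). It was lower at 6 h than at 1 h (-1.44, SE 0.26, adjusted p = 0.0306) and higher at 24 h than at 6 h (1.26, SE 0.26, adjusted p = 0.0324). At 6 h against 1 h 0.359% of all genes were called lower, and at 24 h against 6 h 0.508% were called higher. Both comparisons called the same 2 of the 9 neighbours, 2010310C07Rik and Olfr457. The 24 h against 6 h call of Olfr457 was also lost in the fits above that called 0 genes in that comparison. Without 6 h replicate 1 edgeR called 2 genes there. At 6 h against 1 h it called 4 genes without 1 h replicate 3 and 4 without 6 h replicate 1. Whether Olfr457 was among the genes called in these 3 fits is not given here, nor is it for 2010310C07Rik.

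**Figure D2:**
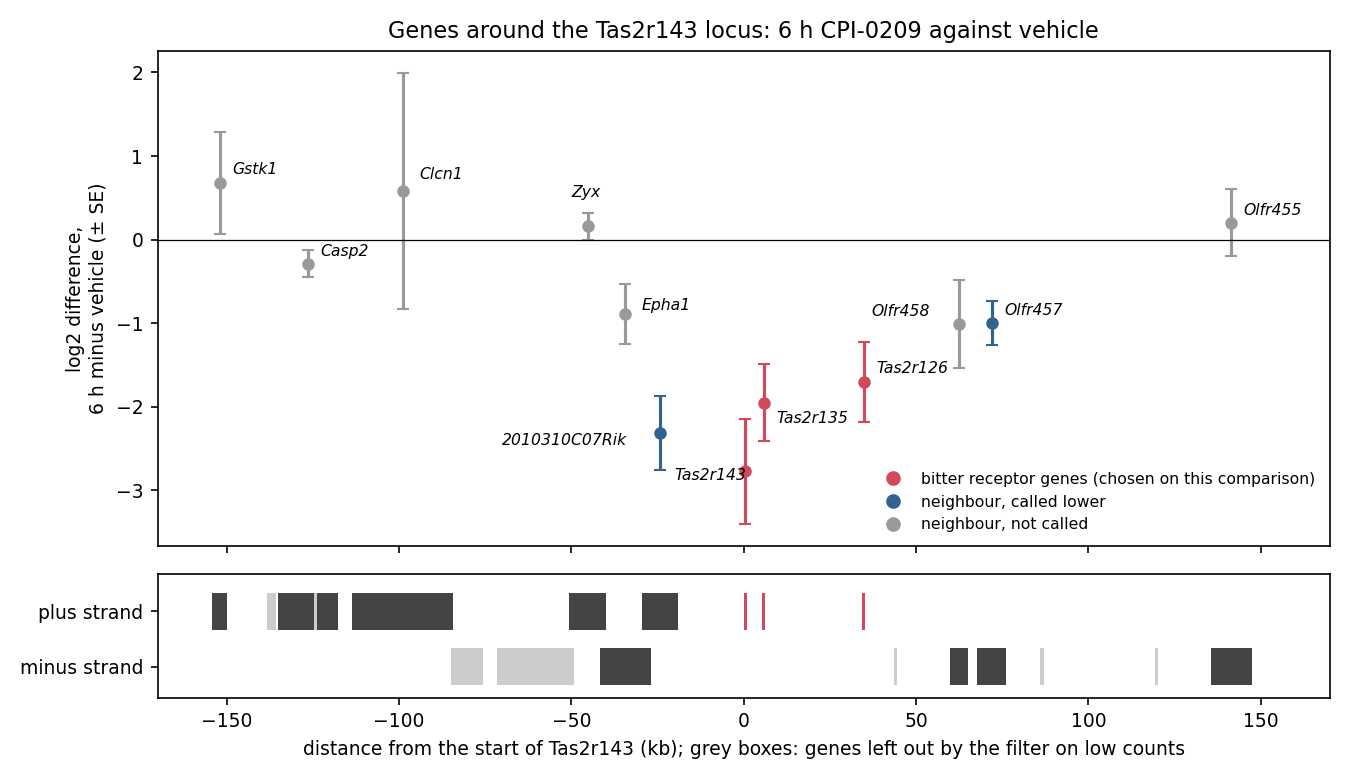
Log2 difference of 6 h minus vehicle (± SE, y axis) for the 12 tested genes around the receptors, by distance of the gene's middle from the start of Tas2r143 (kb, x axis), with gene positions by strand below. The receptors (red) and 2010310C07Rik lie from -2.77 to -1.70. Epha1, Olfr457 and Olfr458 lie at -0.89, -1.0 and -1.01, while Zyx, Casp2, Clcn1, Gstk1 and Olfr455 lie between -0.29 and 0.68. The signs of Zyx and Olfr455 turn with library totals alone, and those of Clcn1 and Olfr455 when 1 library is left out.

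The other neighbours did not pass the test in the fit of all 12 libraries. Zyx, which encodes the adhesion protein zyxin and is by far the most abundant gene of the region, averaged 1791 ± 114 CPM at 6 h and 1599 ± 58.2 CPM in vehicle (SD, n = 3), with a log2 difference of 0.16 (SE 0.16, adjusted p = 0.63), which turned to -0.29 (adjusted p = 0.21) with library totals alone. It ends 40.0 kb before Tas2r143 on the same strand. Epha1, an ephrin receptor on the opposite strand, overlaps Zyx by 1727 bases and 2010310C07Rik by 2598 bases. Its level averaged 7.36 ± 1.02 CPM at 6 h and 13.7 ± 1.69 CPM in vehicle, with -0.89 (SE 0.36, adjusted p = 0.186); it passed the test when only these 2 groups were fitted (adjusted p = 0.031). No source here says whether counting used strand, and the reads of Epha1, 2010310C07Rik and Zyx cannot be fully told apart where they overlap. Casp2, an initiator caspase, had -0.29 (adjusted p = 0.336; with library totals alone -0.75 and 0.035), and Olfr458, between Tas2r126 and Olfr457, had -1.01 (SE 0.53, adjusted p = 0.315). Gstk1, Clcn1 and Olfr455 had 0.68, 0.58 and 0.20, with adjusted p of 0.592 or more. Clcn1 had 0, 0 and 21 counts at 6 h, against 0, 2 and 13 in vehicle, and its difference was -5.35 without 6 h replicate 3 and 2.86 without vehicle replicate 3. That of Gstk1 was 0.35 without 6 h replicate 1 and 1.26 without vehicle replicate 2, that of Olfr455 turned to -0.01 without 6 h replicate 2 and to -0.24 with library totals alone, and that of Olfr458 was -0.34 without vehicle replicate 3.

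**Figure D3:**
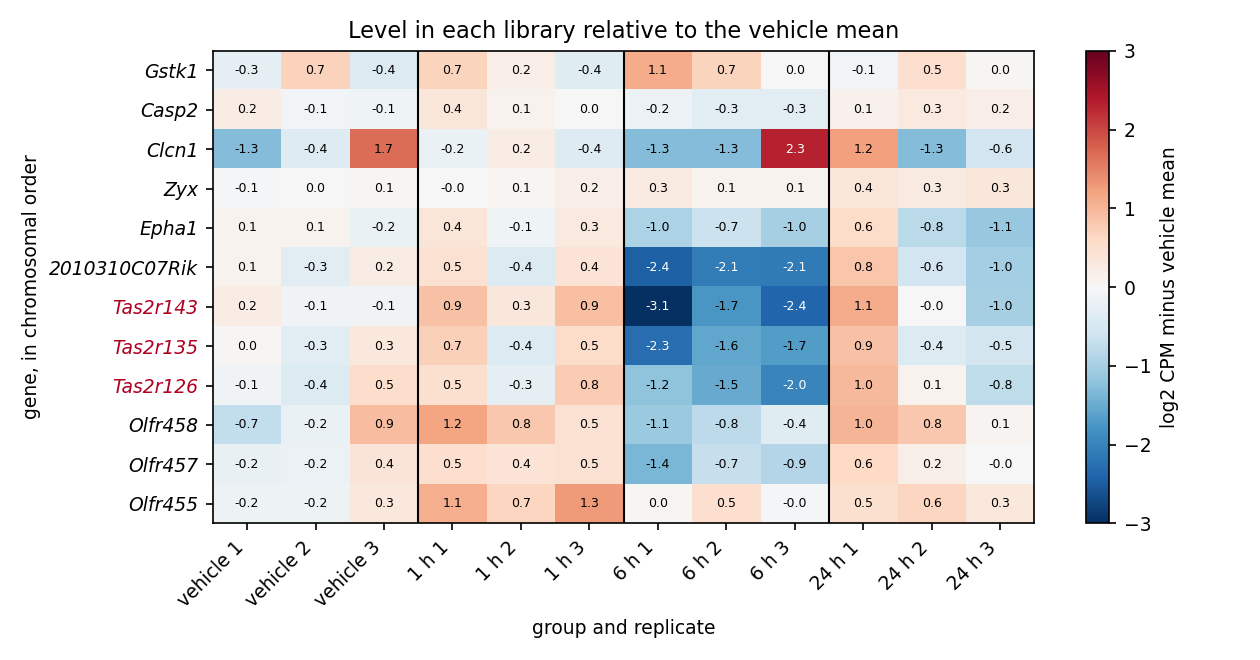
Log2 CPM of each tested gene of the region minus its vehicle mean (colour and number), with the genes in chromosomal order down the page and the 12 libraries across it. The 3 receptors and 2010310C07Rik are low in every 6 h library and in 24 h replicate 3, and high in 24 h replicate 1. Epha1 has the same signs in those libraries, with -0.96, -0.65 and -1.0 at 6 h. Olfr457 is low in every 6 h library and high in 24 h replicate 1 (0.59), but at -0.02 in 24 h replicate 3. Zyx stays within 0.4 of its vehicle mean throughout.

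Of all 13383 other genes tested, 2010310C07Rik had the pattern most like that of Tas2r143 (Pearson r = 0.965) and most like that of Tas2r135 (r = 0.988) over the 12 libraries, on log2 CPM. For Tas2r126 it ranked at place 11 (r = 0.941). Tas2r143 and Tas2r135 correlated at r = 0.960, Tas2r135 and Tas2r126 at 0.923, and Tas2r143 and Tas2r126 at 0.899. With Zyx the 3 receptors had r of -0.162, -0.114 and 0.041. These values share the libraries, their depth and their scaling, and the 3 libraries at 6 h lie apart from the rest, so they are descriptions only.

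Genes elsewhere in the genome followed similar patterns, with smaller relative falls at 6 h among those named here. After Tas2r135, the named genes most like Tas2r143 were Sec61a1 (r = 0.951), Dock2 (0.950), Atp7a (0.948) and Mefv (0.945). Those most like Tas2r135, after Tas2r143, were Plekhb2 (0.960), Mefv (0.956), Wdr11 (0.951) and Sh3tc1 (0.946). For Tas2r126 they were Hcls1 (0.962), Abr (0.960), Akap13 (0.948), Syk (0.948) and Mirt1 (0.946). Mefv, the pyrin gene, averaged 27.7 ± 3.56 CPM at 6 h and 44.4 ± 4.91 CPM in vehicle (SD, n = 3). Syk, a tyrosine kinase of immune receptor signalling, averaged 323 ± 13.5 CPM at 6 h and 452 ± 61.0 CPM in vehicle. Sh3tc1 averaged 2.92 ± 0.722 CPM at 6 h and 7.86 ± 0.530 CPM in vehicle. Hcls1 averaged 67.8 ± 5.65 CPM at 6 h and 89.0 ± 6.78 CPM in vehicle, and Plekhb2 28.8 ± 3.56 and 38.9 ± 1.30 CPM. Pearson r does not measure the size of a change.

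The reticulocyte markers were higher at 6 h, where the receptors were lowest. All 12 were counted, and 8 rose at 6 h against vehicle, such as Epb42 (log2 difference 3.15, adjusted p = 0.00055 by edgeR) and Slc4a1 (2.13, adjusted p = 0.0021), both of the red cell membrane. Of all genes tested, 4.06% rose and 0.785% fell there. None of the 12 fell, and the summed level was 76659 to 88671 CPM at 6 h and 39667 to 45541 CPM in vehicle. At 24 h, replicates 1, 2 and 3 had 23706, 32159 and 65239 CPM of these markers. The 3 receptors together had 31.2, 14.3 and 9.22 CPM there in the same order, an inverse order to that of the markers. At 1 h replicates 1, 2 and 3 had 46060, 53286 and 44954 CPM of the markers and 25.2, 13.7 and 25.9 CPM of the receptors, again inverse. In vehicle the order was the same in both, with 42085, 39667 and 45541 CPM of the markers and 15.8, 12.4 and 19.6 CPM of the receptors. At 6 h, replicate 3 had the least of both (76659 and 3.60 CPM), and the order within groups was thus not the same throughout.

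The summed neutrophil markers were 5957 to 9916 CPM at 6 h and 4101 to 7769 CPM in vehicle, but the list was split. At 6 h against vehicle 1 of 8 (Mmp8, adjusted p = 0.046 by edgeR) was called higher and 0 lower. Log2 differences were 1.38 for Mmp8, 1.57 for Retnlg, 0.82 for S100a8 and 0.52 for S100a9. Those of Csf3r, Cxcr2, Ltf and Camp were -0.52, -0.25, -1.0 and -0.32. Of all genes tested, 4.06% were called higher and 0.785% lower in that comparison. The summed monocyte markers were 3990 to 4467 CPM at 6 h and 5068 to 6109 CPM in vehicle. They were 3332 to 4095 CPM at 1 h and 4097 to 4363 CPM at 24 h. At 6 h against vehicle 1 of 7 (Ccr2, log2 difference -0.63, adjusted p = 0.048 by edgeR) was called lower and 0 higher. Fcgr4 had 0.50, and the others ran from -0.63 to -0.02. The part of these cell types in the receptor values was not tested. Fits that left out a library are not given for any of the cell type markers.

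**Figure D4:**
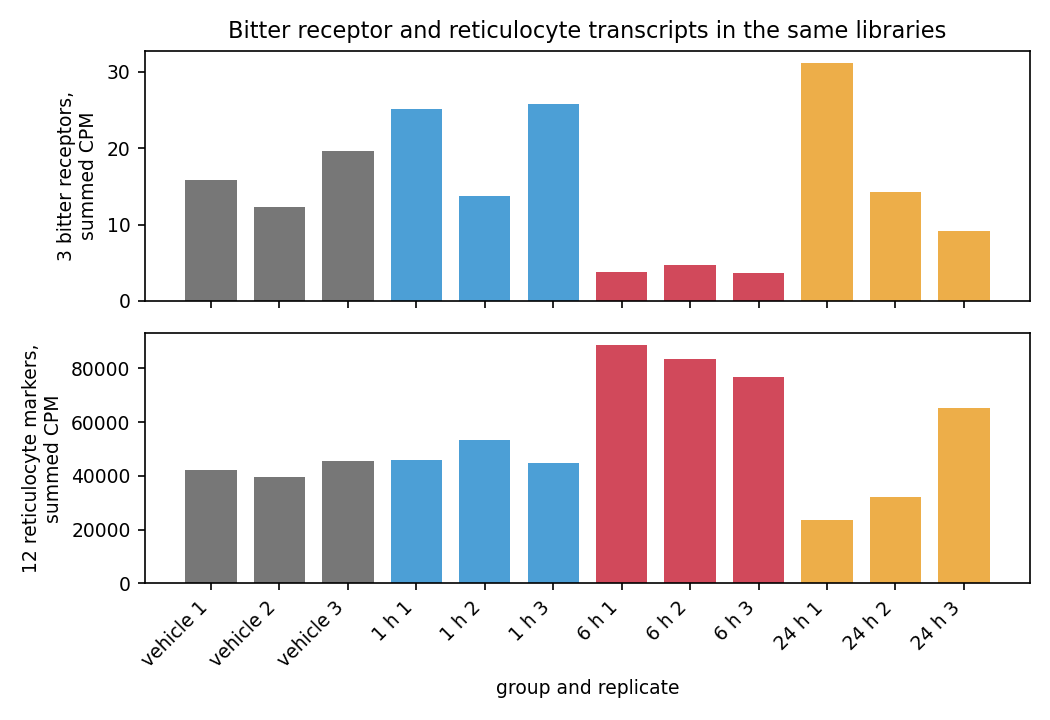
Summed level of the 3 bitter receptors (CPM, upper bars) and of 12 reticulocyte markers (CPM, lower bars) in each library by group and replicate. The 6 h libraries have 3.60 to 4.70 CPM of receptor RNA and the most reticulocyte RNA; the order of the 3 libraries is opposite between the rows at 1 h and 24 h and the same in vehicle, and 6 h replicate 3 is the lowest of its group in both rows.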

How the data were processed

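Whole-blood RNA was read as 150-base pairs. The authors deposited unscaled whole-number counts for 55367 genes with mouse Ensembl identifiers. Per the submitters' processing notes RSEM was used (no version given), so the counts may be rounded estimates; those notes list hg38 although the identifiers are mouse, and no source used here gives the aligner, annotation release or strand setting. Positions come from GENCODE M21 (GRCm38), which held 55035 of the identifiers.

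Counts were filtered with filterByExpr, scaled by TMM and fitted in edgeR 4.0.16 (R 4.3.3), with a quasi-likelihood model of 4 group means over all 12 libraries. There were 6 contrasts, with Benjamini-Hochberg adjustment across all 13384 tested genes. SEs are the log2 difference divided by the root of the F statistic. CPM used TMM-scaled sizes, and correlations log2 CPM with a prior count of 2. For 3 libraries against 3, the smallest two-sided p of an exact permutation test is 0.1. The fit was tested on simulated data for 6 h against vehicle. It called 30.5% of the genes changed by a log2 difference of 1 and 76.5% of those changed by 2. Of 12886 unchanged genes it called 2. A gene that was not called may therefore still differ. No 2 libraries of a group agreed within sampling noise (chi-square per gene 8.61 or more), so each counted once. The receptors, gene lists and tests were chosen with earlier results of these data known. Named were all tested genes within 300 kb, taste genes past 0.05 or among the 6 most abundant, and the 5 genes most correlated with each receptor, passing over predicted Gm and Rik names. Plcb2, Itpr3, Tas1r3 and the taste genes at or near 0 fall outside that rule and were named after their values were seen. So were Epb42, Slc4a1 and the neutrophil, monocyte and tuft cell markers. DESeq2 1.42.0, limma-voom 3.58.1, other filters and scalings, the replicate block and leaving out each library were alternatives; library totals alone was chosen after seeing the data.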

Additional observations from a re-analysis of the deposited data

Results flagged for a closer look

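The differences of 2010310C07Rik and Olfr457 from vehicle were not the same at all times, by edgeR's test of the times in the fit of all 12 libraries. These tests use the 6 h libraries in which the region was chosen. For 2010310C07Rik the log2 difference was -2.50 at 6 h against 1 h and 2.27 at 24 h against 6 h. For Olfr457 it was -1.44 and 1.26. The 24 h against 6 h calls were lost without 24 h replicate 1, 24 h replicate 2 or 6 h replicate 3. They were also lost with only those 2 groups fitted. Whether the 6 h against 1 h calls held with 1 library left out is not given here. Tas2r143 and Olfr457 lay above every vehicle library in all 1 h libraries and below every vehicle library in all 6 h libraries. The smallest two-sided p an exact permutation test can give for 3 libraries against 3 is 0.1. The share of all genes whose groups separate in this way is not given here. At 1 h the adjusted p by edgeR was 0.846 for Tas2r143 and 0.782 for Olfr457. For Tas2r143 the log2 differences from vehicle were 0.76 at 1 h and -2.77 at 6 h, and the difference between those times was not tested, because the 6 h values chose the gene. For Olfr457 they were 0.44 at 1 h and -1.0 at 6 h, and for it the direct test of 6 h against 1 h is given above.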

How the results depend on the processing

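With each library left out in turn, the log2 difference of Tas2r143 ran from -3.41 to -2.41 at 6 h against vehicle and from -4.17 to -3.17 at 6 h against 1 h, both lowest without 6 h replicate 2. At 24 h against vehicle the ranges were -0.43 to 0.68 for Tas2r143, -0.52 to 0.37 for Tas2r135 and -0.31 to 0.57 for Tas2r126, and at 24 h against 1 h they were -0.88 to 0.02 for Tas2r135 and -0.68 to 0.22 for Tas2r126, so those directions depend on 1 library. Olfr457 ran from -1.17 to -0.79 at 6 h, Clcn1 from -5.35 to 2.86 and Olfr455 from -0.01 to 0.39; 1 to 3 neighbours were called lower and 0 to 1 taste genes higher.

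Library totals alone moved the median of all genes at 6 h against vehicle to -0.50, against -0.04 with TMM. There Tas2r135 had -2.40, Tas2r126 -2.15, Zyx -0.29 and Olfr455 -0.24 at 6 h, 0 taste genes were called higher and 1, the receptor kinase Grk6 (-0.70, adjusted p = 0.046 by edgeR), lower, and Tas2r126 had 0.06 at 24 h against 1 h. limma-voom called 1 neighbour lower at 6 h, with Olfr457 at -0.98 and Clcn1 at -0.25. The replicate block also called 1, with Olfr457 at -1.0, and changed no other call of neighbours or taste genes at 6 h against vehicle. Its calls of neighbours in other comparisons and of cell type markers are not given. Deviations of libraries with the same replicate number correlated at -0.11 to 0.17, so the numbers were not taken as pairs. The causes of these changes were not tested. With 10 counts of Tas2r143 at 6 h, depth limits its difference. A filter of 5 CPM in 3 libraries left no value for Gstk1, Clcn1, Olfr458 and Olfr455, and fitting only the groups compared left none for Gstk1 and Clcn1 at 6 h against vehicle or for Tas2r143 at 24 h against 6 h.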
